A study of Mus musculus with 32 samples.

Results

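The uterus of FVB/N mice at embryonic day E8.5 was compared with the uterus at E12.5, over every gene measured above background. The 2 groups were chosen by the time point in the sample labels alone, and hold 4 mice at E8.5 and 5 at E12.5, so 9 of the 32 arrays of the series. All were pregnant FVB/N mice from FVB/N crosses, carried no allele and received no agent that the labels name, and the groups differ by time point. Days were counted from the vaginal plug. The 5 mice at E10.5, between both days, are used below to place the changes in time. RNA came from the wall of the uterus at the implantation sites, after embryo and placenta were removed and the decidua was scraped off with a blade. Each array holds the pooled RNA of 1 mouse, and ages are given for pregnant mice as a whole and not for each group. Values are log2 expression on Illumina MouseRef-8 v2 arrays, 1 step being a doubling, and 13439 genes were tested.

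In the mouse, implantation is over by the earlier of both days. The stroma around the embryo has turned into decidua by rounds of division and differentiation, and the luminal epithelium has been lost at the implantation site. By the later day a placenta feeds the embryo, the decidua is regressing, an epithelium lines the lumen again, and the muscle layer stretches while it is held quiet by progesterone. Tissue of this kind mixes smooth muscle, stroma, epithelium and glands, vessels and leukocytes. In such bulk RNA, fewer cells of a type and less RNA per cell cannot be told apart.

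The libraries were checked first. Between 13464 and 14160 probes were detected in the E8.5 mice and between 13414 and 14016 in the E12.5 mice, and no 2 arrays held the same values. The muscle genes Acta2, Myh11 and Des were detected in all 9 mice, with means of 13.63, 13.57 and 13.86 at E8.5. The progesterone receptor Pgr was detected in all 9, whereas the probe of the gland factor Foxa2 was detected in none of them. E8.5 replicate 3 stood apart. It held the epithelial secretory gene Prap1 at 5.18, against 14.18 to 14.41 in the other 3 mice, and only 11 of 26 genes of simple epithelia were detected in it against 18 to 21 in the others. It was the lowest E8.5 mouse for 441 of the 872 genes that rose and the highest for 441 of the 1017 that fell. At E12.5, genes of placenta and trophoblast were detected more often in replicates 3 and 1 (23 and 12 of 36) than in the other 3 mice (4 to 6). At E10.5, replicate 4 had 27 of the 36 detected, against 5 to 7 in the other E10.5 mice. Their summed linear level was 41100 in that mouse and 9750 to 12600 in the others. Replicates 4 and 5 stood below the other E12.5 mice in Prf1 and Gzmf, transcripts of natural killer cells. Where a call on a named gene was lost without E8.5 replicate 3, or without E12.5 replicates 1 and 3, that is said beside it. The p-values and SE rest on the spread between single mice. That spread was taken for each gene within all 7 time points, over 32 arrays, and not from the 9 compared mice alone.

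Between E8.5 and E12.5, 872 genes rose and 1017 fell by limma's moderated test with Benjamini-Hochberg adjustment, 6.49% and 7.57% of the genes tested. The rises were larger. Of the genes that rose, 428 (3.18% of all genes tested) rose by more than 1 on the log2 scale and 41 by more than 3, whereas 191 of the genes that fell (1.42%) passed 1 and 2 passed 3. The median rise was 0.99 and the median change of a fallen gene was -0.67, while the median over all genes was -0.03. These sizes include E8.5 replicate 3, the lowest E8.5 mouse for 441 of the 872 risers and the highest for 441 of the 1017 fallers. The median sizes were not computed without it. All E12.5 mice lay above all E8.5 mice for 616 of the genes that rose, and below them for 701 of those that fell; over all genes tested the shares were 5.87% and 7.18%. With cyclic loess in place of quantile normalisation the split turned to 1068 rises and 746 falls, so the balance of both directions depends on the scaling. Without E8.5 replicate 3, 630 genes rose (4.69%) and 699 fell (5.2%). Without E12.5 replicates 1 and 3, 501 rose (3.73%) and 439 fell (3.27%). Without all 3 of these mice, 2.61% of the genes rose and 2.01% fell.

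**Figure D1:**
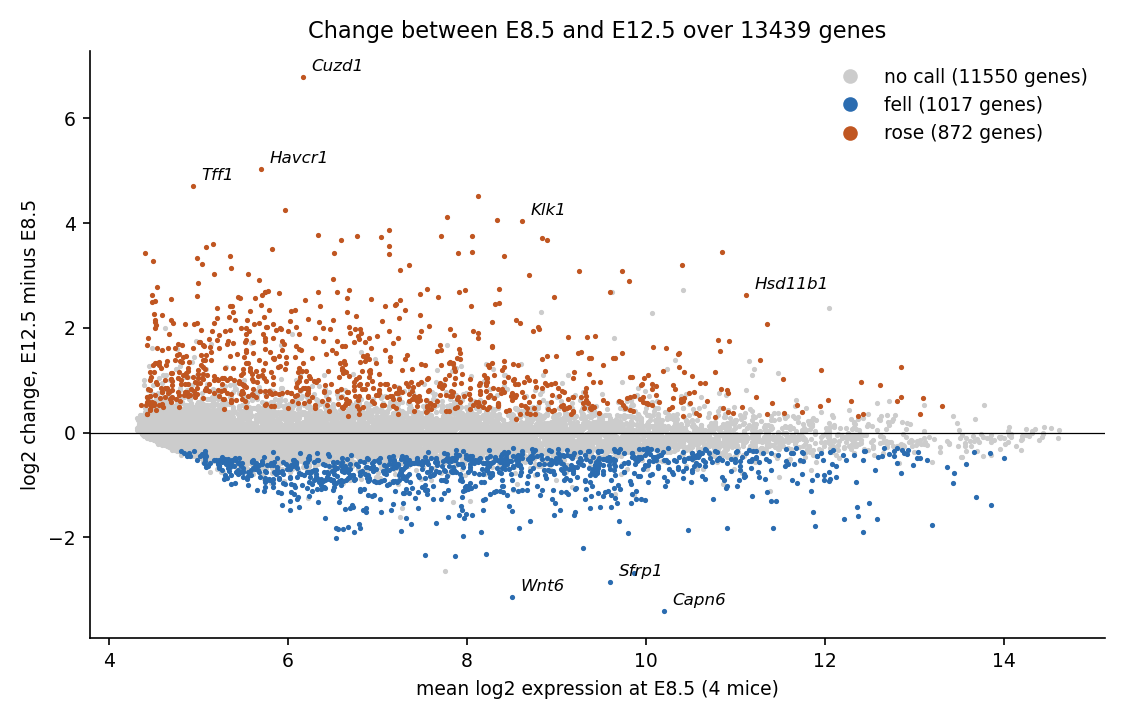
Log2 change from E8.5 to E12.5 (vertical axis) against the mean log2 expression of the 4 E8.5 mice (horizontal axis), 1 point per gene. The 872 genes that rose reach 6.78, while the 1017 that fell reach -3.41.

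The largest rise of all belonged to Cuzd1, which encodes a protein with CUB and zona pellucida domains. Its log2 expression was 7.09, 7.28, 4.60 and 5.73 in E8.5 replicates 1 to 4, between 8.85 and 10.43 at E10.5, and 12.94, 12.78, 13.02, 11.99 and 14.05 in E12.5 replicates 1 to 5. No E12.5 mouse came near the E8.5 range. The change was 6.78 ± 0.37 (SE of the fit over 32 arrays, n = 4 and 5), 110-fold, with an adjusted p of 1.1e-13. It was 6.26 without E8.5 replicate 3. The SD between the mice was 1.26 at E8.5 and 0.74 at E12.5. Cuzd1 was close to the bottom of the scale in non-pregnant mice (mean 4.49) and at E6.5 (4.55), and stood at 14.32 at E15.5.

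Second was Havcr1, a receptor for phosphatidylserine that epithelial cells of the mouse kidney use to take up dying cells. The E8.5 mice read 6.08, 6.23, 4.59 and 5.88, and the E12.5 mice 10.80, 10.38, 10.70, 10.46 and 11.27. The groups were far apart, and the change of 5.03 ± 0.24 (adjusted p = 5.5e-15) was 4.66 without E8.5 replicate 3. Tff1, a trefoil peptide secreted with mucus, rose by 4.71 ± 0.73 (adjusted p = 4.5e-05). It was detected in 1 of the 4 E8.5 mice, replicate 4 at 6.47, and in all 5 E12.5 mice, from 8.31 to 10.74. The GPI-anchored protein gene Ly6f rose by 4.24, and Elapor1, which encodes a membrane protein of the endosome and lysosome, by 3.86, or 2.89 without E8.5 replicate 3.

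**Figure D2:**
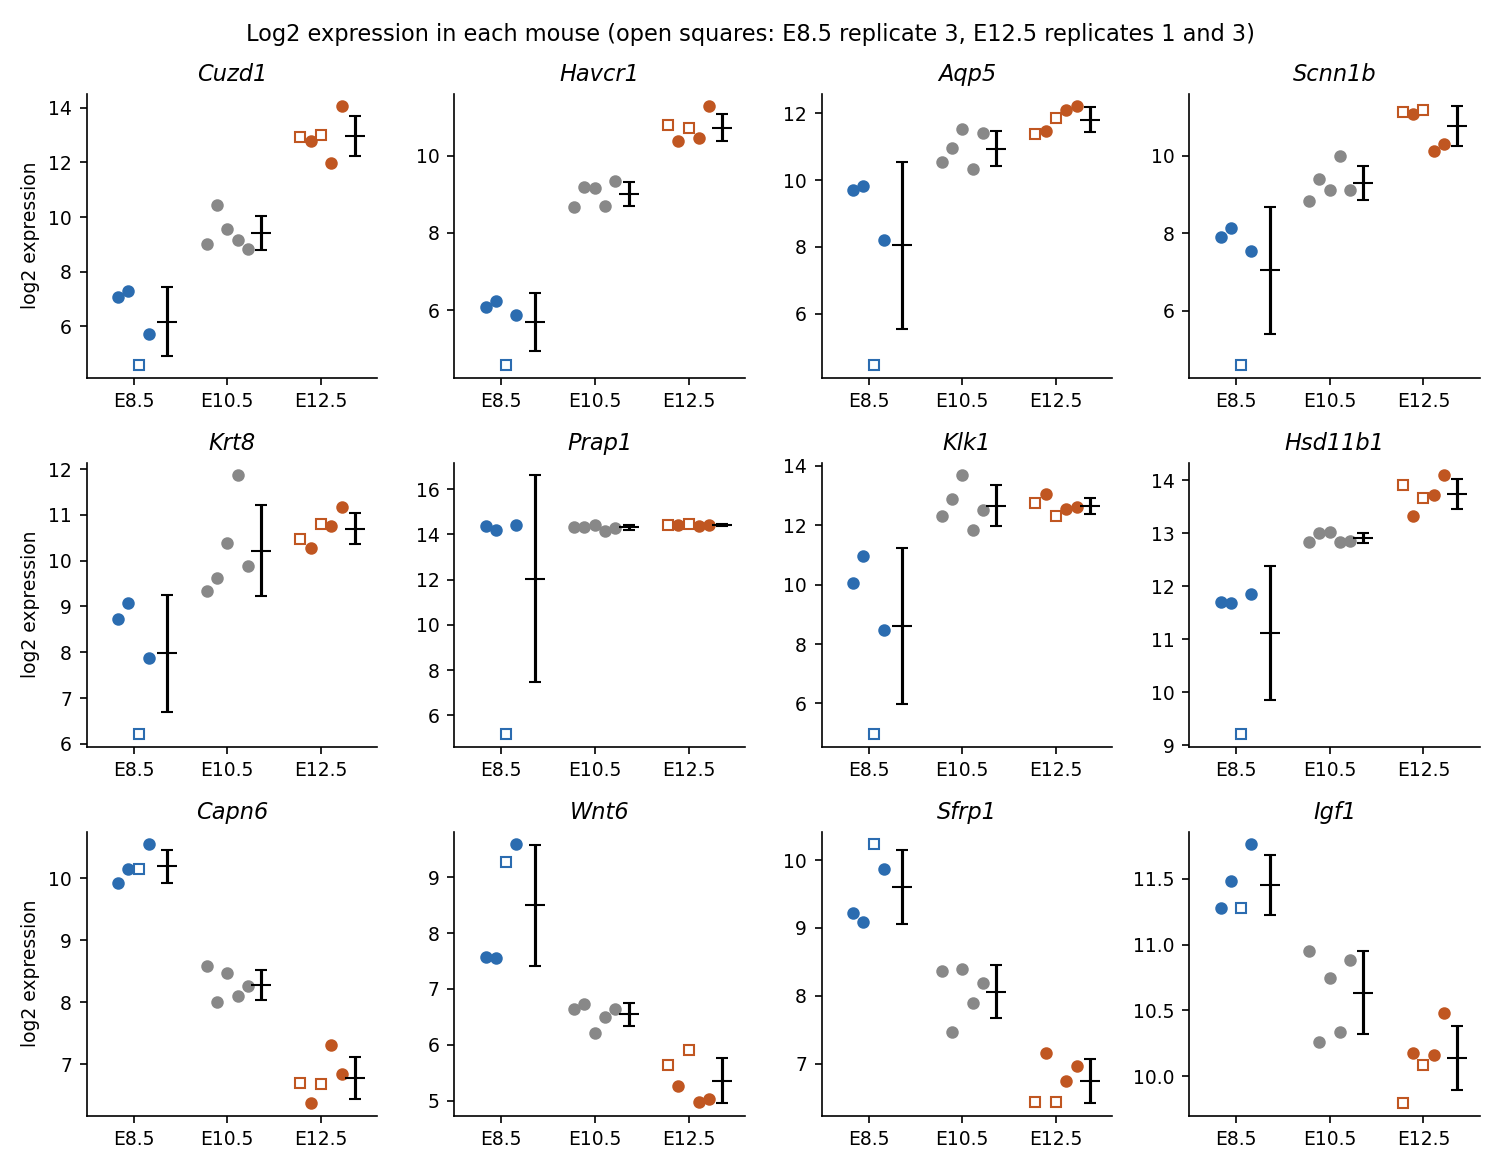
Log2 expression (vertical axes) of 12 genes in each mouse at E8.5, E10.5 and E12.5 (horizontal axes), with the mean and SD of each group beside its points. Open squares mark E8.5 replicate 3 and E12.5 replicates 1 and 3. E8.5 replicate 3 is the lowest mouse for Cuzd1, Havcr1, Aqp5, Scnn1b, Krt8, Prap1, Klk1 and Hsd11b1.

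Genes that move water and ions across epithelia were among the strongest rises. Aquaporins are water channels, the epithelial sodium channel takes sodium out of the lumen, and the sodium pump carries it on. Of 30 measured genes of osmolyte, amino acid and water transport, 7 rose (23.3%, against 6.49% of all genes) and none fell, and 7 rose without E8.5 replicate 3. The median of the list was 0.33. Aqp8 stood at 9.30, 10.23, 4.60 and 8.34 in the E8.5 mice and between 12.10 and 13.08 in the E12.5 mice. Its change of 4.51 ± 0.57 (adjusted p = 2.3e-06) was 3.34 without E8.5 replicate 3, so that 1 mouse carries part of its size. Aqp5 rose by 3.75 (adjusted p = 0.00131), and by 2.56 without that mouse (adjusted p = 0.0119).

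The beta subunit of the sodium channel, Scnn1b, read 7.90, 8.13, 4.60 and 7.53 at E8.5 and 11.13, 11.08, 11.18, 10.12 and 10.31 at E12.5. The groups did not overlap, and the rise was 3.73 ± 0.48, or 2.91 without E8.5 replicate 3 (adjusted p = 4.7e-06). The gamma subunit Scnn1g rose by 1.17 and missed the threshold without E12.5 replicates 1 and 3 (0.87, adjusted p = 0.0898). The pump's beta subunit Atp1b1 rose by 2.15 and its regulator Fxyd3 by 2.74, or 1.57 without replicate 3 (adjusted p = 0.0171). The remaining riser of the list was Slc5a3, a transporter of the osmolyte myo-inositol, by 1.05 ± 0.21. Outside the list, the membrane-bound carbonic anhydrase Car4 rose by 3.76, with 4.40 in E8.5 replicate 3, 7.32 to 9.71 in the other E8.5 mice and 11.14 to 11.90 at E12.5. Without that mouse its change was 2.66.

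Structural and regulatory genes of simple epithelia rose with them. Keratins 8, 18 and 19 form the filaments of such cells, E-cadherin joins them, and Elf3, Grhl2 and Esrp1 control their transcription and splicing. Of 26 measured genes of this list 18 rose (69.2%, against 6.49% of all genes) and 1 fell, with a median change of 1.52. Without E8.5 replicate 3, 16 rose and the median was 1.25, with 4.69% of all genes rising. The gene that fell was Klf5, a transcription factor, by 0.53, and its call was lost when E8.5 replicate 3 or 4 or E12.5 replicate 2, 4 or 5 was left out (adjusted p up to 0.122). Krt8 read 8.73, 9.08, 6.22 and 7.87 at E8.5 and 10.27 to 11.18 at E12.5, a change of 2.73 ± 0.48 (adjusted p = 1.9e-04), or 2.14 without replicate 3. Krt18 rose by 2.41, Krt19 by 1.98, Elf3 by 2.54, Grhl2 by 1.54 and Esrp1 by 2.24. Without that mouse the change was 1.72 for Krt18, 1.94 for Elf3 and 1.24 for Esrp1 (adjusted p = 0.00796). Cdh1, the gene of E-cadherin, rose by 1.33 and missed the threshold without replicate 3 (0.88, adjusted p = 0.0575).

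Some of these genes changed little when that mouse was left out. Spint1, an inhibitor of serine proteases on the epithelial surface, read 4.92, 5.05, 4.50 and 4.65 at E8.5 and 6.19 to 6.48 at E12.5, a change of 1.41 ± 0.22 without it. Ap1m2, a subunit of the sorting complex of epithelial cells, rose by 2.08 and by 1.92 without it. Each of these genes was detected in only 1 of the 4 E8.5 mice, so near background replicate 3 had little room to lie below the others. Prap1 itself gave no call. Outside replicate 3 it was already at 14.18 to 14.41 at E8.5 and stood at 14.36 to 14.44 at E12.5. The means of non-pregnant mice for Krt8 (11.01) and of E15.5 mice (12.01) were above that at E12.5 (10.70), so that E8.5 (7.98) and E6.5 (8.20) were the low points of its course.

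Tissue kallikreins are serine proteases of glands, and the mouse carries a large family of Klk1b genes beside Klk1 in a cluster on 1 chromosome. Of 13 measured members 7 rose (53.8%, against 6.49% of all genes) and none fell, with a median change of 1.35. Without E8.5 replicate 3, 6 of the 7 rises held, with 4.69% of all genes rising. Klk1 read 10.05, 10.96, 4.98 and 8.48 in the E8.5 mice, from 11.85 to 13.68 in the E10.5 mice and 12.33 to 13.05 at E12.5. Its change of 4.04 ± 0.69 (adjusted p = 1.5e-04) fell to 2.83 without replicate 3 (adjusted p = 4.2e-04). Klk1b5 rose by 4.12 and Klk1b27 by 4.06, or 3.02 and 2.85 without it. Klk1b11 behaved otherwise: it was detected in no E8.5 mouse (4.43 to 4.60) and in every E12.5 mouse (5.65 to 8.27), at least 4.87-fold higher, which is a bound because the E8.5 level is not well above background. Klk1b24 was the member that lost its call without replicate 3 (1.43, adjusted p = 0.0624). The sequences of this family are alike, and a probe of 1 member can also bind RNA of another, so the counts of this list are not counts of independent genes.

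The secretoglobin Scgb1a1, known from club cells of the airway, rose by 3.77 with overlapping groups (4.60 to 8.18 at E8.5, 7.68 to 11.15 at E12.5). Napsa, an aspartic protease, rose by 3.71 (2.63 without E8.5 replicate 3) and the carbohydrate sulphotransferase gene Chst8 by 3.76. Hsd11b1 makes active glucocorticoid from its inactive form. It read 11.71, 11.68, 9.22 and 11.86 in the E8.5 mice, from 12.84 to 13.02 in the E10.5 mice and 13.32 to 14.09 at E12.5. The rise of 2.63 ± 0.35 (adjusted p = 5.8e-06) was 1.99 ± 0.25 without replicate 3, and the mean went on to 14.28 at E15.5. Hsd11b2, the enzyme of the opposite reaction, gave no call (0.46, adjusted p = 0.516).

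Akr1c18 inactivates progesterone in mice. It stood at 10.77, 10.67, 4.56 and 9.61 at E8.5 and at 12.32 to 12.87 at E12.5, a change of 3.67 ± 0.71, or 2.22 without replicate 3 (adjusted p = 2.0e-04). Cyp11a1, which starts steroid synthesis from cholesterol, rose by 2.67 (adjusted p = 0.00757) with overlapping groups, and missed the threshold without E12.5 replicates 1 and 3 (2.12, adjusted p = 0.104). Of 24 measured genes of steroid receptors, carriers and metabolism 5 rose (20.8%, against 6.49% of all genes) and 2 fell (8.33%, against 7.57%). The median was 0.06. Without E8.5 replicate 3 the counts were 4 and 2, and without E12.5 replicates 1 and 3 they were 2 and 0. The receptor genes Pgr (0.39, adjusted p = 0.228) and Esr1 (-0.11, adjusted p = 0.891) were not called.

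Genes of cell division fell. DNA is copied after MCM helicases are loaded onto it with the help of Cdt1, and the later steps of mitosis need kinases such as Plk1, spindle motors such as Kif11 and centromere proteins such as Cenpa. Of 29 measured genes of DNA replication and S phase 22 fell (75.9%, against 7.57% of all genes) and none rose. Of 22 genes of mitosis and chromosome segregation 16 fell (72.7%) and none rose. The median change was -0.91 in both lists. Over the scalings, background corrections, probe choices and linear models tried, the falls numbered 19 to 23 and 14 to 17. Without E8.5 replicate 3, the E8.5 mouse highest in both lists, they numbered 17 and 12, and without E12.5 replicates 1 and 3 they numbered 15 and 12. With all 3 of these mice left out, a choice made after the values were seen, 11 and 5 falls passed while the medians stayed at -0.79 and -0.75.

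The means over each list show the same in single mice. For the replication list they were 8.11, 8.12, 8.37 and 8.11 in E8.5 replicates 1 to 4 and 7.44, 7.32, 7.39, 7.51 and 7.19 in E12.5 replicates 1 to 5. For the mitosis list they were 7.69, 7.72, 8.04 and 7.83 against 6.93, 6.80, 6.97, 7.30 and 6.91. No E12.5 mouse reached the E8.5 range in either list, and E12.5 replicate 4 was the highest of its group in both.

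Mcm4, a subunit of the helicase, read 11.22, 11.28, 11.48 and 11.42 at E8.5 and 10.26, 10.10, 9.97, 10.65 and 10.04 at E12.5, a change of -1.14 ± 0.16 (adjusted p = 1.3e-05). Its partners Mcm2, Mcm3 and Mcm5 changed by -1.12, -1.35 and -1.26, the initiation factor Mcm10 by -1.41, Cdt1 by -0.93, the thymidine kinase Tk1 by -1.34 and the clamp loader subunit Rfc5 by -0.91. Each of these 8 named genes was lower in all 5 E12.5 mice than in any E8.5 mouse. Over the whole replication list this held for 19 of 29 measured genes, against 7.18% of all genes tested. Among the genes of mitosis, Birc5, a subunit of the complex that corrects chromosome attachment, had the largest fall. It read 9.05, 9.42, 9.48 and 9.55 at E8.5 and 7.84, 7.84, 7.85, 8.25 and 7.87 at E12.5, a change of -1.44 ± 0.26 (adjusted p = 2.8e-04). Plk1 changed by -1.17, Kif11 by -1.25, Cenpa by -0.91, the mitotic kinase Aurka by -1.10 and the topoisomerase Top2a by -1.26.

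Of the change between E8.5 and E12.5, called members of the mitosis list had covered a median of 18.4% by E10.5 and those of the replication list 22.1%, against 62% over all genes that fell, a difference that was not tested. The means of Plk1 for E8.5, E10.5 and E12.5 were 9.84, 9.77 and 8.67, and those of Mcm5 were 10.75, 10.45 and 9.49. No gene of either list passed limma's test of E10.5 against the midpoint of both days. From E12.5 to E15.5 the median step was -0.39 in the replication list and -0.70 in the mitosis list, which was not tested here.

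The promoters of these genes are shown because the members moved together, and because known motifs of the cell cycle can be read in them. The CHR element TTTGAA and the CCAAT box lie in promoters of genes that peak in mitosis, and E2F factors bind sites such as TTTGGCGC, TTTCGCGC, TTTCCCGC and TTTGCCGC in genes of replication. RefSeq windows from 250 bases before to 50 after the start (GRCm38.p6, found for 10789 of the genes tested) were searched on both strands. Those printed belong to the fallen genes with the smallest p whose window holds the motifs marked. A match in each of them was therefore fixed by the choice. Birc5, which ranked above the mitosis genes printed, was passed over for lacking CHR and CCAAT. Rfc5, Mcm2, Chaf1b and Mcm10 ranked above Cdt1, and Tk1 above Mcm3. All of these were passed over for lacking an E2F match. For Mcm4, which had the smallest p of the replication list, no window was found. In the windows below the matches are in capitals: CHR and CCAAT in the first 3, which belong to mitosis genes that fell, and E2F sites in the last 3, which belong to replication genes that fell. The windows are Plk1 chr7:122159185-122159484 (plus strand), Kif11 chr19:37376132-37376431 (plus strand), Cenpa chr5:30666636-30666935 (plus strand), Mcm5 chr8:75109259-75109558 (plus strand), Mcm3 chr1:20820263-20820562 (minus strand) and Cdt1 chr8:122567765-122568064 (plus strand).
Plk1: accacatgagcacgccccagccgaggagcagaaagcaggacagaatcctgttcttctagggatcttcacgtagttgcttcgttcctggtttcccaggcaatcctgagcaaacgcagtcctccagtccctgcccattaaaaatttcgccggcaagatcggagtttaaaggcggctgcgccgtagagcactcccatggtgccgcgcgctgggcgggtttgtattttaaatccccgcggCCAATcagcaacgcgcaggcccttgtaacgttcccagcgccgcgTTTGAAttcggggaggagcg
Kif11: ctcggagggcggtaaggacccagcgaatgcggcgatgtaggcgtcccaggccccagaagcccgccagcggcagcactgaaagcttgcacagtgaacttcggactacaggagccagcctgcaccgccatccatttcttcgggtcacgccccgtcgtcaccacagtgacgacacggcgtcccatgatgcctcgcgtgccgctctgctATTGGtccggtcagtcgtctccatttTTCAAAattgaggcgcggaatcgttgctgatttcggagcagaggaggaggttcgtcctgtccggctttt
Cenpa: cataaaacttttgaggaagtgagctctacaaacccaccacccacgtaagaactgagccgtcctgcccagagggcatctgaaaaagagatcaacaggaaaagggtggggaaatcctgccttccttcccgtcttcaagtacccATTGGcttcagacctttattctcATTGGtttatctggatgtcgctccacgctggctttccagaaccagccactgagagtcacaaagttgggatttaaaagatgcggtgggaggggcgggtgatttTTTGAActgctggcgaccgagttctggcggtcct
Mcm5: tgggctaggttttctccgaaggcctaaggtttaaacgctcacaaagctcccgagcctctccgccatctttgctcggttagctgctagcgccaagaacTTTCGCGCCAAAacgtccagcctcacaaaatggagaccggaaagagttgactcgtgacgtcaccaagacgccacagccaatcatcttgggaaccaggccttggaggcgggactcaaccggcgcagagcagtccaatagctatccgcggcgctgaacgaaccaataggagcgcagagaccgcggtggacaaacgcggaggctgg
Mcm3: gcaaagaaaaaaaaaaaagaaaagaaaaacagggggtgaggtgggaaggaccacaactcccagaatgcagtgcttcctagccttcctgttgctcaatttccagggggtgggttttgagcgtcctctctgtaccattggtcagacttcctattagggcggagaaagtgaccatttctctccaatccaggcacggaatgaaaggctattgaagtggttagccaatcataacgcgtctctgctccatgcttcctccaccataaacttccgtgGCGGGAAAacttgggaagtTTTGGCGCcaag
Cdt1: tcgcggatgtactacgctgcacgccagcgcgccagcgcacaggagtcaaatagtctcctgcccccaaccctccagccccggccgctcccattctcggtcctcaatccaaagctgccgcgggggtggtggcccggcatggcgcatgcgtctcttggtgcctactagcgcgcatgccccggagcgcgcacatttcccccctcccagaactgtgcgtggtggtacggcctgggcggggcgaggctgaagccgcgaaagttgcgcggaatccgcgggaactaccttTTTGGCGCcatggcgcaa
CHR was found in 13 of the 14 fallen mitosis genes that have a window (92.9%), against 15.8% of all genes, and CCAAT in 12 of 14 (85.7%) against 42.6%. Over all measured mitosis genes with a window, fallen or not, CHR was in 16 of 19 (84.2%) and CCAAT in 15 of 19 (78.9%). The matches thus mark the list, and a link with the fall was not tested. Of 16 CHR matches 13 lay between -50 and 49 bases from the start. An E2F match was found in 9 of 19 fallen replication genes (47.4%) and in 9 of 26 measured ones (34.6%), against 3.88% of all genes. In Mcm5 both of its matches overlap in 1 stretch. Birc5, with the largest fall of the mitosis list, held neither a CHR nor a CCAAT match in its window. The lists were drawn from general knowledge of the cell cycle, where these motifs are known, and a match describes the letters and not a bound site.

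**Figure D3:**
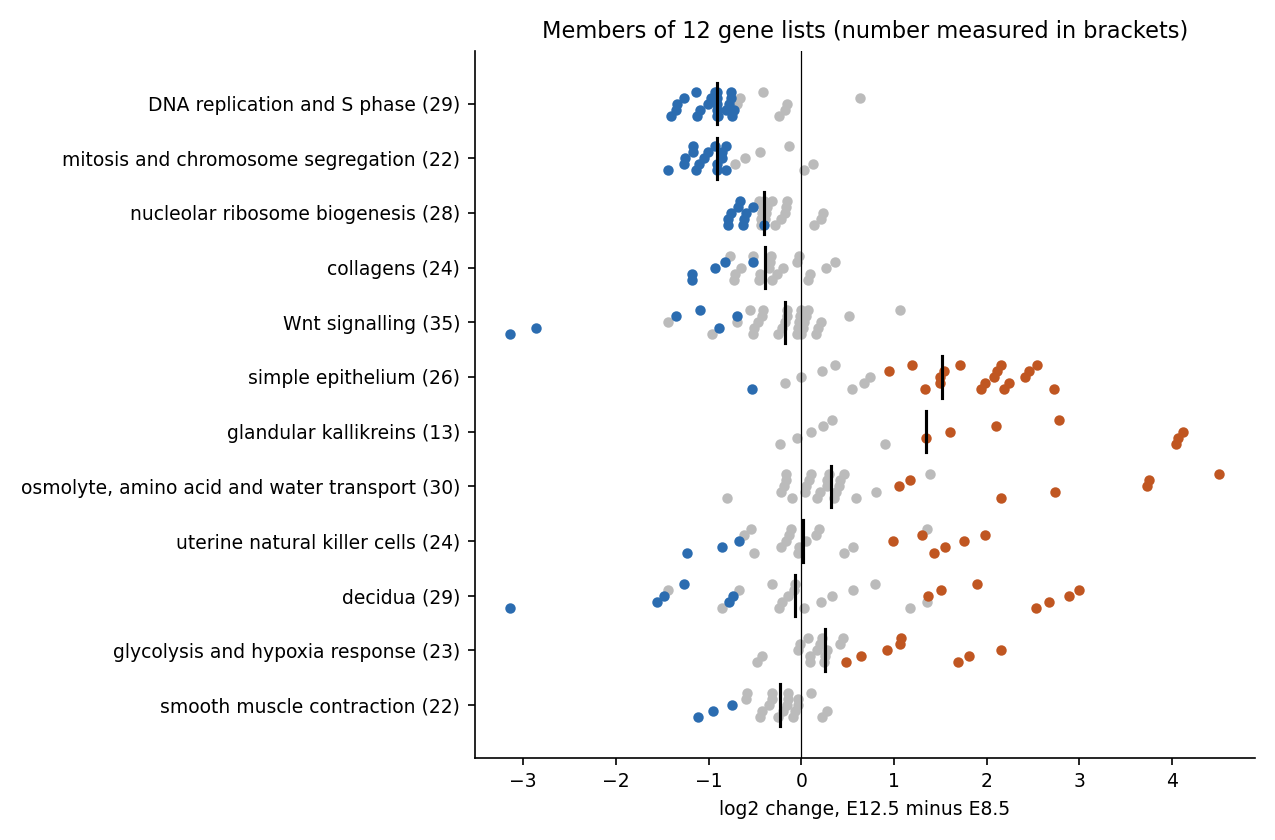
Log2 change from E8.5 to E12.5 (horizontal axis) of the measured members of 12 gene lists, 1 point per gene, with the number measured in brackets and the median as a black bar. Orange points rose, blue points fell and grey points were not called; the replication and mitosis lists have a median of -0.91 and the simple epithelium list one of 1.52.

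Of 28 measured genes of ribosome biogenesis in the nucleolus 10 fell (35.7%, against 7.57% of all genes) and none rose, with a median of -0.41. The falls numbered 8 without E8.5 replicate 3 (5.2% of all genes) and 5 without E12.5 replicates 1 and 3 (3.27% of all genes). Of 47 genes of cytosolic ribosomal proteins 6 fell (12.8%, median -0.18), but 2 without E8.5 replicate 3 and 1 without E12.5 replicates 1 and 3, which leaves no share above that of all genes. Fibrillarin (Fbl), which methylates ribosomal RNA, read 10.93, 11.22, 10.93 and 11.30 at E8.5 and 10.11, 10.23, 10.15, 10.61 and 10.38 at E12.5, a change of -0.79 ± 0.17. Its partner Nop58 also changed by -0.79, the nucleolar GTPase gene Gnl3 by -0.76 and Gar1, of the complex that makes pseudouridine, by -0.68.

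The largest falls of single genes lay elsewhere. Capn6, a calpain without the catalytic cysteine that stabilises microtubules, read 9.92, 10.16, 10.15 and 10.55 in the E8.5 mice, from 8.00 to 8.58 in the E10.5 mice and 6.70, 6.38, 6.68, 7.31 and 6.85 at E12.5. All 3 time points were apart from each other, and the change of -3.41 ± 0.39 (adjusted p = 5.6e-07), or 10.6-fold lower, was the largest fall of any gene called. Hmgn5, a nucleosome-binding protein, changed by -2.69, the microtubule regulator Stmn2 by -2.36 and Kank4 by -2.34. Dio3, which inactivates thyroid hormone and is known from the pregnant uterus, was high at E8.5 (12.15 to 12.80) and changed by -1.89 to 10.19 to 11.26 at E12.5. Fmo1, a flavin-containing monooxygenase, changed by -1.87. Ntm, a cell adhesion protein known from neurons, was detected in all 4 E8.5 mice and in none at E12.5, at least 2.84-fold lower.

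Genes of Wnt signalling were among them. Wnt ligands act through Frizzled receptors, secreted Frizzled-related proteins bind and hold back the ligands, and R-spondins strengthen the signal. Wnt6 read 7.58, 7.56, 9.28 and 9.59 at E8.5 and 5.63, 5.27, 5.90, 4.97 and 5.03 at E12.5, where 3 of 5 mice had it detected. E8.5 replicates 3 and 4 were the higher pair, and the groups did not overlap. The change was -3.14 ± 0.38 (adjusted p = 1.7e-06). Sfrp1, an inhibitor, read 9.22, 9.09, 10.23 and 9.87 at E8.5 and 6.43 to 7.15 at E12.5, a change of -2.86 ± 0.35. The ligand Wnt5a changed by -1.35 and Rspo3 by -1.09, and outside the list the ligand Wnt10a changed by -2.32. Of 35 measured genes of the Wnt list 6 fell (17.1%, against 7.57% of all genes) and none rose, with a median of -0.17. Without E12.5 replicates 1 and 3, 4 fell, with 3.27% of all genes falling. The others that fell were Fzd2, a receptor, and Sfrp2, and each rested on single mice: Fzd2 missed the threshold without E8.5 replicate 4 (adjusted p = 0.0516), and Sfrp2 kept its call only when E8.5 replicate 3 or E12.5 replicate 4 was the mouse left out (adjusted p up to 0.0929). Without both E12.5 replicates 1 and 3 neither passed (adjusted p = 0.107 for Fzd2 and 0.255 for Sfrp2).

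**Figure D4:**
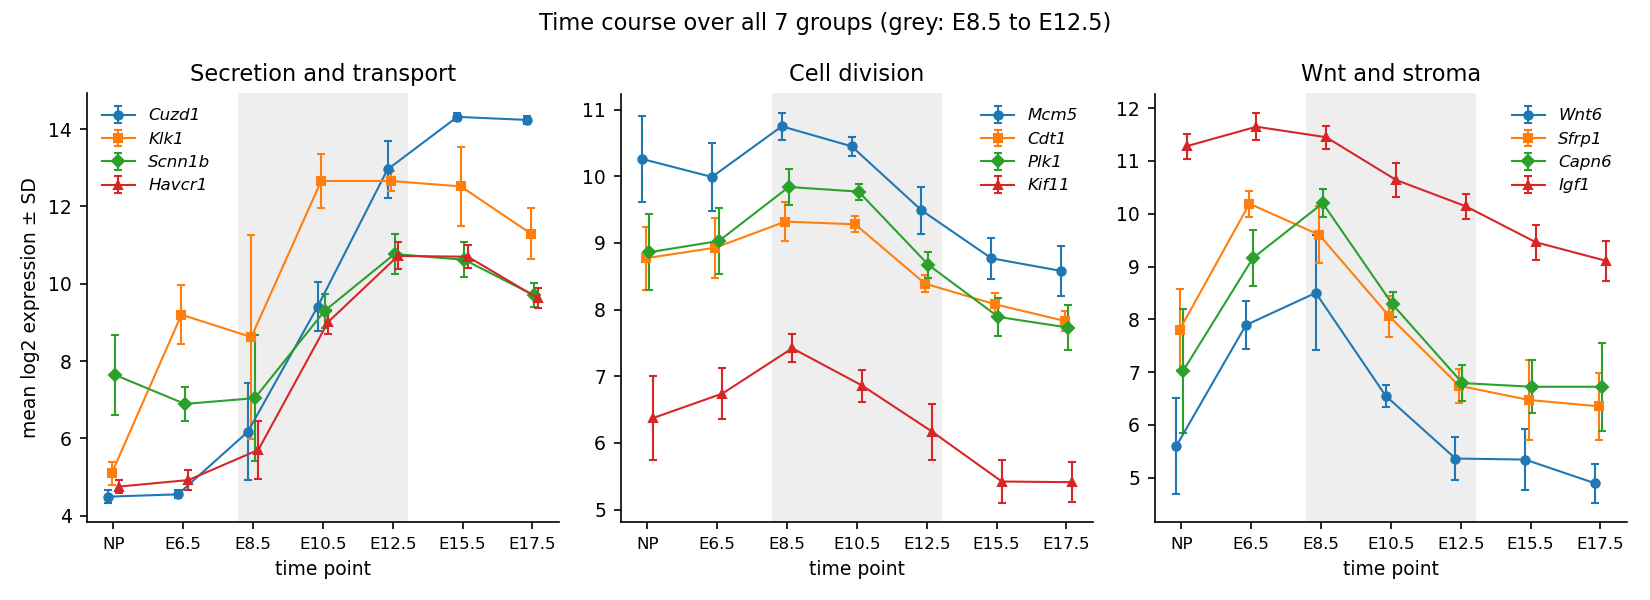
Mean log2 expression ± SD (vertical axes) over the 7 groups of the series (horizontal axes), with the span from E8.5 to E12.5 in grey. Cuzd1 climbs from 6.17 to 12.96 across the grey span, Plk1 is at 9.84 at E8.5 and 9.77 at E10.5, and Wnt6 is highest at E8.5.

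Of 18 genes of the insulin-like growth factor list 2 rose (11.1%) and 3 fell (16.7%), against 6.49% and 7.57% of all genes. The list's median was -0.09. Igf1, which drives growth of the uterus, read 11.28, 11.48, 11.28 and 11.76 at E8.5 and 9.80, 10.18, 10.09, 10.16 and 10.48 at E12.5, a change of -1.30 ± 0.19 (adjusted p = 2.6e-05) with no overlap. Of its binding proteins Igfbp4 changed by -1.22 and Igfbp5 by -0.96, whereas Igfbp2 rose by 1.52. Igfbp5 missed the threshold without E12.5 replicates 1 and 3 (-0.79, adjusted p = 0.0633). Htra1 and Htra3, serine proteases that can cleave such binding proteins, rose by 1.63 and 2.89. Htra3 stood at 8.87 to 10.33 at E8.5 and at 12.12 to 13.17 at E12.5.

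Tgfb2, a ligand of the transforming growth factor beta family, read 8.93, 8.70, 8.62 and 7.41 in the E8.5 mice, from 10.74 to 11.78 in the E10.5 mice and 11.86, 12.02, 11.80, 11.03 and 12.26 at E12.5, a change of 3.38 ± 0.35 (adjusted p = 9.9e-08), or 10.4-fold. E8.5 replicate 3 lay within its group here. Id1, Id3 and Smad6 are induced by BMP signals in many cells, and changed by -1.27, -1.07 and -1.19. Over the 33 genes of TGF-beta, BMP and activin signalling 3 rose (9.09%) and 5 fell (15.2%), against 6.49% and 7.57% of all genes. The list's median was 0.03. The counts were 1 and 5 without E8.5 replicate 3, and 1 and 3 without E12.5 replicates 1 and 3.

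Transcription factors of the progesterone response in stroma fell or were not called. Nr2f2 read 8.25, 8.18, 8.61 and 8.27 at E8.5 and 6.63, 7.18, 6.92, 7.90 and 7.40 at E12.5, a change of -1.12 ± 0.21 (adjusted p = 3.9e-04). Gata2 changed by -0.87 with no overlap, while Hoxa10 (-0.32) and Hoxa11 (-0.24) missed the threshold. Of 21 measured genes of the list 3 fell (14.3%, against 7.57% of all genes), none rose and 18 were not called, with a median of -0.24. Without E12.5 replicates 1 and 3, 2 fell, with 3.27% of all genes falling. The list's direction thus rests on few calls.

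Genes of the matrix changed in both directions. Of 24 collagen genes 5 fell (20.8%, against 7.57% of all genes) and none rose, with a median of -0.40. Of 37 genes of elastic fibres and matrix assembly 5 fell (13.5%) and 2 rose (5.41%, against 6.49% of all genes). Without E12.5 replicates 1 and 3 the collagen falls numbered 3. In the elastic fibre list 3 fell and none rose without E8.5 replicate 3, and 3 fell and 1 rose without E12.5 replicates 1 and 3. Mfap2, a protein of microfibrils, read 9.68, 9.81, 10.06 and 9.75 at E8.5 and 8.12, 8.34, 8.09, 8.98 and 8.92 at E12.5, a change of -1.34 ± 0.17 (adjusted p = 3.2e-06). Col27a1 and Col14a1 both changed by -1.18 and Emilin1 by -0.76. On the other side Mmp10, which degrades matrix proteins, was detected in no E8.5 mouse and in all 5 E12.5 mice, at least 3.06-fold higher, and Mmp13 likewise at least 2.37-fold. Plau, the urokinase that activates plasmin, rose by 2.02 and stood at 8.32 to 9.10 at E8.5 and at 10.41 to 11.24 at E12.5. The metalloproteinase Adam12 went the other way, by -1.07. Of 25 proteinases and inhibitors 5 rose (20%, against 6.49% of all genes) and 3 fell (12%, against 7.57%). Without E8.5 replicate 3 the falls numbered 2, and without E12.5 replicates 1 and 3 they numbered 1, with 5 rises each time.

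Uterine natural killer cells hold granzymes and perforin (Prf1). Of 24 measured genes of the list 6 rose (25%, against 6.49% of all genes) and 3 fell. Without E8.5 replicate 3 there were 2 rises and 1 fall. Prf1 read 9.52, 9.50, 9.70 and 9.91 at E8.5 and 11.67, 12.31, 11.69, 9.74 and 10.04 at E12.5, so that E12.5 replicates 4 and 5 lay within or just above the E8.5 range. The change was 1.43 ± 0.49 (adjusted p = 0.0487), and the call was lost when any mouse other than E12.5 replicates 4 and 5 was left out, with an adjusted p of up to 0.153. The granzyme gene Gzmf rose by 1.98 (adjusted p = 0.00973). It read 10.70, 11.12 and 10.07 in E12.5 replicates 1 to 3 against 8.32 and 8.73 in replicates 4 and 5. Without E12.5 replicates 1 and 3 no gene of the list rose and 2 fell. Those 2 mice also held the most placenta transcripts of the group, whereas E12.5 replicate 2, highest in Prf1 and Gzmf, had 6 of 36 detected. Their part in the rise was not tested. Xcl1, a chemokine, fell by 1.23 with no overlap, and missed the threshold without E12.5 replicates 1 and 3 (-1.01, adjusted p = 0.0956).

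Of 16 T cell genes 5 rose (31.2%, against 6.49% of all genes), but 2 without E8.5 replicate 3 and 2 without E12.5 replicates 1 and 3. Cd6, a receptor of T cells, rose by 1.94 ± 0.30 (adjusted p = 4.3e-05) and by 1.62 without those E12.5 mice, and Ctla4 by 2.15 and 1.81. Ctla4 was detected in 1 of the 4 E8.5 mice and in all at E12.5, where replicate 2 was highest at 8.64. Of 20 macrophage genes 4 rose (20%, against 6.49% of all genes). The rises numbered 3 without E8.5 replicate 3 (4.69% of all genes) and 1 without E12.5 replicates 1 and 3 (3.73% of all genes). Csf1, the growth factor of macrophages, read 9.96, 10.35, 7.63 and 7.92 at E8.5 and 10.68 to 12.10 at E12.5, a change of 2.59 ± 0.44 (adjusted p = 1.3e-04). The E8.5 mice fell into a high and a low pair. Il1r2, a decoy receptor of interleukin-1, rose by 3.41, Cxcl1, which attracts neutrophils, by 2.33, and Ackr2, which removes chemokines, by 2.08. Cxcl12 changed by -1.68. Tlr4 rose by 0.80. Of 29 genes of Toll-like receptor signalling 5 rose (17.2%, against 6.49% of all genes). The rises numbered 3 without E8.5 replicate 3 (4.69% of all genes) and 2 without E12.5 replicates 1 and 3 (3.73% of all genes). None of 14 genes of MHC class II and antigen presentation was called.

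Genes of glycolysis and the hypoxia response rose in 8 of 23 cases (34.8%, against 6.49% of all genes), with none falling and a median of 0.26. Without E8.5 replicate 3, 5 calls were left, with 4.69% of all genes rising. Only 1 call was left without E12.5 replicates 1 and 3, close to the 3.73% of all genes that rose then. Higd1a, a mitochondrial protein induced by hypoxia, was that gene. It read 5.32, 5.43, 5.46 and 5.08 at E8.5 and 7.39, 7.86, 7.04, 6.04 and 6.73 at E12.5, a change of 1.69 ± 0.35. Adm, the vasodilator adrenomedullin, rose by 2.15, with 5.45 to 5.66 at E8.5 and 6.12 to 8.94 at E12.5, and missed the threshold without both mice (1.41, adjusted p = 0.162). Here again E12.5 replicates 4 and 5 were the lowest of their group. The list's mean was 7.69 to 7.75 in the E8.5 mice, 8.40, 8.47 and 8.42 in E12.5 replicates 1 to 3, and 7.85 and 7.97 in replicates 4 and 5.

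Of 22 genes of smooth muscle contraction 3 fell (13.6%, against 7.57% of all genes) and none rose, with a median of -0.23, and 1 fell without E12.5 replicates 1 and 3. Of 27 genes of uterotonin receptors and contraction 4 fell (14.8%, against 7.57% of all genes) and 2 rose (7.41%, against 6.49%). The counts were 1 and 1 without E8.5 replicate 3, and 3 and 0 without E12.5 replicates 1 and 3. Acta2, Myh11 and Des changed by -0.25, -0.35 and -0.04 and were not called. The small heat shock protein Hspb6 changed by -1.11 and Pdlim3, a protein of the muscle cytoskeleton, by -0.95, E12.5 replicates 4 and 5 being the highest of their group for both. Pdlim3 missed the threshold without E12.5 replicates 1 and 3 (-0.72, adjusted p = 0.115). Among receptors and channels of contraction, the gap junction gene Gja1 was high at E8.5 (13.20 to 13.78) and changed by -0.78 (adjusted p = 0.0224), with overlapping groups. That call was lost without E8.5 replicate 3, E8.5 replicate 4 or E12.5 replicate 5, with adjusted p-values of 0.0647, 0.0903 and 0.0538. Zeb1 (-0.27) and Zeb2 (-0.18), repressors of contraction genes, were not called. The stress regulator Nupr1 (0.42) and the transcription factor Tbx2 (-0.43) were not called either.

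Markers of tissue that the dissection could have left were read next to these results. The decidua list held 7 rises (24.1%) and 6 falls (20.7%) among 29 genes, against 6.49% and 7.57% of all genes. It held 3 rises and 4 falls without E8.5 replicate 3 (4.69% and 5.2% of all genes). Without E12.5 replicates 1 and 3 it held 1 rise and 4 falls (3.73% and 3.27% of all genes), so its rises no longer passed the share of all genes. Tdo2, a tryptophan-degrading enzyme of decidua, changed by -1.56, and Prl8a2, a decidual prolactin, was at 11.12, 9.30, 4.46 and 9.89 at E8.5 and at 13.76, 11.76, 13.05, 8.81 and 11.08 at E12.5. Its rise of 3.00 (adjusted p = 0.0362) was 1.59 without E8.5 replicate 3 (adjusted p = 0.265) and also missed the threshold without E8.5 replicate 2 or E12.5 replicate 1, 2 or 3 (adjusted p = 0.0505 to 0.117), and without both E12.5 replicates 1 and 3 (adjusted p = 0.353). Of 36 placenta and trophoblast genes none rose and 1, Gata3, fell. Their summed linear level was 10600 to 12900 at E8.5 and 5440 to 13700 at E12.5, so the groups overlapped. No gene of embryonic red cells was called among 13, though their summed level was 12900 to 16400 at E8.5 and 19000 to 26600 at E12.5. Of 26 yolk sac genes 3 rose (11.5%, against 6.49% of all genes), none without E8.5 replicate 3 and 1 without E12.5 replicates 1 and 3. Of these 26, 9 to 12 were detected in the E8.5 mice and 12 to 18 in the E12.5 mice, and their summed level was 1340 to 1960 against 1940 to 2220. Adipocyte genes rose in 4 of 12 cases (33.3%, against 6.49% of all genes), or 3 without E12.5 replicates 1 and 3 (3.73% of all genes). Their summed linear level was 1650 to 1930 at E8.5 and 2450 to 3560 at E12.5. Adipoq, which defines the type, was detected in 1 of 4 and 3 of 5 mice and gave no call. The part of these marker lists in the results above was not tested.

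Most changes were already under way at E10.5. The E10.5 mean lay between both days for 812 of the genes that rose and for 880 of those that fell, and the median gene had covered 61.9% and 62% of its change. Lists differed in this. Called kallikreins had covered a median of 91.9% by E10.5, called collagens 88.9% and called genes of simple epithelia 74.4%. These differences between lists were not tested. The E10.5 means include replicate 4, the mouse rich in placenta transcripts, and the shares were not computed without it. It was also the highest E10.5 mouse for Krt8, at 11.86 against 9.33 to 10.39.

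Few genes passed a test for leaving the straight course between both days, which does not make the course of the others straight. Against the midpoint of E8.5 and E12.5, 13 genes passed the test at E10.5 (0.0967% of those tested), 10 above and 3 below, and 1166 had an unadjusted p at or under 0.05. Without E10.5 replicate 4, 17 genes passed. Ch25h, which makes an oxysterol from cholesterol, read 8.51, 8.63, 6.96 and 6.69 in the E8.5 mice, from 9.79 to 10.85 in the E10.5 mice and 8.84 to 9.93 at E12.5, which put E10.5 1.62 above the midpoint. Asprv1, a protease of the epidermis, lay 1.83 ± 0.25 above it (adjusted p = 8.4e-04) with no change between E8.5 and E12.5 that passed the test. Elovl2, which lengthens fatty acids, was detected in no E8.5 mouse, stood at 5.64 to 6.97 at E10.5 and at 5.43 to 6.52 at E12.5, at least 1.77-fold higher than at E8.5.

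Of 24 p53 targets 5 rose (20.8%, against 6.49% of all genes), but 2 without E8.5 replicate 3 and 3 without E12.5 replicates 1 and 3. Among the 5 was the stress gene Gadd45a, which rose by 1.59 ± 0.29 (adjusted p = 2.5e-04). Of 31 genes for the clearance of dying cells 6 rose (19.4%, against 6.49% of all genes), Havcr1 being one of them, and 2 fell. Without E12.5 replicates 1 and 3, 5 rose and none fell. Of 26 genes of lipid uptake and storage 7 rose (26.9%, against 6.49% of all genes) and 1 fell. There were 4 rises and no fall both without E8.5 replicate 3 and without E12.5 replicates 1 and 3. Pnpla2, a lipase of fat droplets, read 9.90, 10.01, 9.99 and 9.98 at E8.5 and 10.53 to 10.59 at E12.5, a small change of 0.59 ± 0.12 with no overlap. Of 32 genes of vascular growth and endothelium 2 rose (6.25%) and 3 fell (9.38%), close to the shares of all genes. The neuropilin gene Nrp1, a co-receptor of vascular growth factors, changed by -0.92 ± 0.15 (adjusted p = 8.7e-05) with no overlap. Genes of oxidative phosphorylation (1 of 34 fell, 2.94%) and of the proteasome (2 of 30 fell, 6.67%) gave few calls, against 7.57% of all genes that fell.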

How the data were processed

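RNA of 32 uteri of FVB/N mice was hybridised to Illumina MouseRef-8 v2 arrays, 1 per mouse, and the labels gave the time point of each. The authors deposited probe intensity values with detection p-values, and a log2 table that they had background-corrected with control probes (limma, normexp), quantile-normalised and cleared of 5528 probes with a detection p-value above 0.05 on every array. The deposited log2 values were used. Rebuilding them from the intensity table gave differences of at most 0.0339.

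Of 20169 probes kept, 18903 had 1 gene symbol in the platform annotation. The probe with the highest SD stood for each of 13439 genes, of which 3704 had several probes. Group means of 7 time points were fitted over all 32 arrays (R 4.3.3, limma 3.58.1, lmFit and eBayes), and E12.5 minus E8.5 was called at a Benjamini-Hochberg adjusted p of at most 0.05. A second contrast set E10.5 against the midpoint of both days. Errors are SE of this fit, with the spread pooled over the 7 time points, unless named otherwise. A probe not detected on any array of a group gives only a bound, set against the dimmest detected signal of each array. The number of arrays limits the precision. The script was tested on simulated data.

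Genes were named as the 15 largest rises and 15 largest falls detected on every array of the higher group, up to 6 members of each of 43 gene lists by adjusted p, marker genes and genes the study discusses, and the text gives a part of these. Members, lists and named genes were chosen with earlier results of these data known. Promoter windows came from RefSeq (GRCm38.p6), and gene symbols matched RefSeq for 13430 genes. The labels give no slide or hybridisation batch. Replicate numbers of the same value did not deviate together and were not treated as pairs.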

Additional observations from a re-analysis of the deposited data

Results flagged for a closer look

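Single mice stood far from the rest of their group for 18 values, out of 126 named genes read in both groups. Dixon's criterion for outlying values was used, which chance meets in about 1 of 20 groups. Over all genes the share was 6.55% at E8.5 and 6.02% at E12.5, and the share among the named genes was close to these. Of the 18, 5 belong to E8.5 replicate 3. It was low for Prap1 (5.18, nearest mouse 14.18), Elapor1 (4.24, nearest 7.85), Fxyd3 (4.85, nearest 9.25), Hsd11b1 (9.22, nearest 11.68) and Igfbp5 (12.98, nearest 13.53).

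E8.5 replicate 4 was high for Tff1 (6.47, nearest 4.49) and low for Gnl3 (7.14, nearest 7.30) and Acta2 (13.14, nearest 13.75). E8.5 replicate 2 was high for Ap1m2 (5.91, nearest 4.72), and E8.5 replicate 1 for Adipoq (6.82, nearest 4.59), a fat cell gene.

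E12.5 replicate 4 was high for 3 genes of cell division, Birc5 (8.25, nearest 7.87), Kif11 (6.88, nearest 6.08) and Rfc5 (7.71, nearest 7.49). E12.5 replicate 3 was high for Ntm (4.98, nearest 4.48), where it was not detected, and low for Esr1 (8.22, nearest 9.08). E12.5 replicate 5 was high for Ly6f (11.08, nearest 10.13) and low for Adam12 (6.62, nearest 6.96), and E12.5 replicate 1 was high for Id3 (7.72, nearest 7.41).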

How the results depend on the processing

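No call of a named gene changed direction under any of 23 alternative settings, and 76 of the 110 named genes that were called kept their call under all of them. The count of 1889 calls ranged from 1409 (9 arrays alone) to 2571 (array weights) over other normalisations, filters, probe choices and models. With the replicate block it was 2201, although the replicate numbers do not pair the mice (correlations of deviations from -0.18 to 0.17). Leaving out 1 mouse gave 1329 (E8.5 replicate 3) to 2321 (E12.5 replicate 4) calls, with 630 to 1020 rises and 699 to 1301 falls. Without E12.5 replicates 1 and 3 there were 940 calls, 501 rises and 439 falls, and 137 of the 234 calls within the lists. Without these and E8.5 replicate 3, a setting chosen after seeing the data, there were 621 calls, 351 rises and 270 falls, and 95 within the lists; fewer mice were compared, and other causes were not tested. The 13 genes off the midpoint at E10.5 became 26 with the 28 arrays of pregnant mice, 37 with array weights, 22 with the replicate block, 8 without those 3 mice and 6 to 22 when 1 mouse was left out. The run with no filter on dim probes was not made, because probes that the filter removed have no gene name in the annotation used here.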
